A study of Rattus norvegicus with 12 samples.

Results

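The lining of the rat uterus was abraded with a needle and then given a printed patch that held no cells, and the transcriptome of that tissue was compared with that of uninjured uterus across all genes measured. The comparison used 6 of the 12 libraries in the series, 3 labelled cp-transplanted (CP) and 3 labelled normal, and the libraries were chosen by these labels alone. The rats were females of 8 weeks, and their strain is not given in the sources used here. In the CP group the patch was made of Endo-UdECM, the material the study prints with, and was placed in a uterine horn 2 days after the abrasion that the labels call AS induction. The normal group is labelled only as normal, with no treatment named. The other 2 groups, AS (abrasion with no patch named in the labels) and EEP (the study's other patch after the same abrasion), entered the shared model and are given below as values only. Within an animal the horn opposite an EEP served as its internal control or received the CP, so a CP horn may have shared an animal with an EEP horn, and the labels do not say which horns did. Neither the time of harvest nor the stage of the estrous cycle is given in the sources used here. The labels do not say whether the 3 libraries of a group came from separate animals, so the spread that the p-values rest on is that between libraries and may be technical.

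The endometrium is the inner layer of the uterus, made of a luminal and glandular epithelium on a stroma rich in fibroblasts, vessels and immune cells. Estrogen drives its growth and progesterone its differentiation, and it can renew itself without a scar. Severe injury can instead leave fibrous tissue, and interferon signalling, matrix genes, steroid-response genes and mitochondrial genes are among the programmes followed in such tissue.

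Expression was measured by 3′ end sequencing of total RNA (QuantSeq), which reads each transcript near its end, so a count does not grow with gene length. The 6 libraries held between 5406379 and 8077591 counts, and between 1414958 and 3695001 of them fell on nuclear genes. Levels are given as counts per 1000000 of library size, scaled by the trimmed mean of M-values (TMM), and written CPM. At these depths 3 counts, the number used as the floor for a gene with no reads, stood for 0.288 to 0.754 CPM. Mitochondrial genes took 56.5%, 50.1% and 44.1% of the counts in normal replicates 1, 2 and 3, and 82.5%, 66.5% and 64.8% in CP replicates 1, 2 and 3. The CP libraries were all above the normal ones, and the difference of 21.02 percentage points had an exact two-sided permutation p of 0.1, the smallest that 3 against 3 allows. CP replicate 1 stood apart, its median correlation across genes with the 3 normal libraries being 0.765, where CP replicates 2 and 3 had 0.843 and 0.812. Although the labels name endometrium, markers of smooth muscle, the main cell of the outer uterine wall, summed to between 6337 and 7885 CPM in the normal libraries. Markers of endometrial stroma summed to between 2045 and 2696 CPM there, and those of simple uterine epithelium to between 293 and 866 CPM.

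The first question was how much of the transcriptome of patched tissue differed from uninjured tissue. Of 13909 genes tested, 0 passed an adjusted p of 0.05 in edgeR's quasi-likelihood test on all 12 libraries (0% called), and the smallest adjusted p was 0.0708. An adjusted p under 0.1 was reached by 6 genes (0.0431%), Ap1s1, Uba7, Clmn, Ccdc136 and Iqcn, higher in CP, and Igfbp7, lower. Without adjustment, 1760 genes (12.7%) had a p under 0.05, 942 of them higher in CP (6.77%) and 818 lower (5.88%), where 695.45 would be expected if no gene differed. When the same test was run on the 6 CP and normal libraries alone, 585 of 12643 genes passed (4.63%), 410 of them higher in CP (3.24%) and 175 lower (1.38%). DESeq2 on all 12 libraries called 265. The spread shared by all genes, the common biological coefficient of variation, was 59.2% with 12 libraries and 45.5% with 6. The 12-library result is the main one, and most adjusted p-values printed for a gene are given from both fits. The 6-library count changed widely when a single library was left out. It was 57 without normal replicate 1, 206 without normal replicate 3 and 214 without normal replicate 2. It was 190 without CP replicate 3, 314 without CP replicate 2 and 654 without CP replicate 1. A small part of the 585 genes was called in every one of these fits, among them Ap1s1, Iqcn, Igfbp7, Lama2 and Col3a1. In 1818 genes (13.1%) every CP library was above every normal one, and in 2060 genes (14.8%) every CP library was below. The median difference over all genes was -0.04 on the log2 scale. For CP against normal, a q-value under 0.05 is given to 1 gene (Hnf4g, whose counts were too low to be tested here) in the authors' deposited table, and a p-value under 0.05 to 2508.

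No gene passed over 12 libraries, and the genes taken first were those with the smallest p or the largest fold in each direction. Ap1s1, a small subunit of the AP-1 clathrin adaptor (mRatBN7.2 chr12:19625267-19635792, plus strand), was at 21.6, 22.02 and 22.3 CPM in the normal libraries and at 148, 116 and 210 CPM in the CP libraries. The normal values lay close together, and every CP library was above all of them. The log2 fold change was 2.84 ± 0.43 (SE, n = 3 a group), with an edgeR adjusted p of 0.0708 over 12 libraries and 0.00303 over 6. Vamp8, a SNARE protein of endosomal fusion, was at 48.6, 31.9 and 36.3 CPM in normal and 170, 119 and 232 CPM in CP. Its log2 fold change was 2.15 ± 0.42 (edgeR adjusted p 0.106 over 12 libraries, 0.00516 over 6). Iqcn (mRatBN7.2 chr16:18716519-18733971, minus strand) was at 0.949, 6.21 and 10.9 CPM in normal and at 276, 472 and 386 CPM in CP, and had the largest fold among the higher genes named here. Its log2 fold change was 5.96 ± 1.07 (edgeR adjusted p 0.0847 over 12 libraries, 0.00303 over 6). Klhdc8b, a kelch-repeat protein, was at 67.4, 51.9 and 83.6 CPM in normal and 405, 443 and 746 CPM in CP. Of the other genes with the smallest p among those higher in CP, Uba7, the activating enzyme for ISG15 conjugation, was at 4.004 to 5.59 CPM in normal and 16.6 to 36.2 CPM in CP. Clmn, Ccdc136, Ap3b2 and Plekhh1 likewise had no overlap between the groups, with log2 fold changes of 3.67, 2.48, 2.92 and 2.79. P2ry2, a receptor for extracellular nucleotides, was at 5.21 to 23.0 CPM in normal and 81.9 to 176 CPM in CP.

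**Figure D1:**
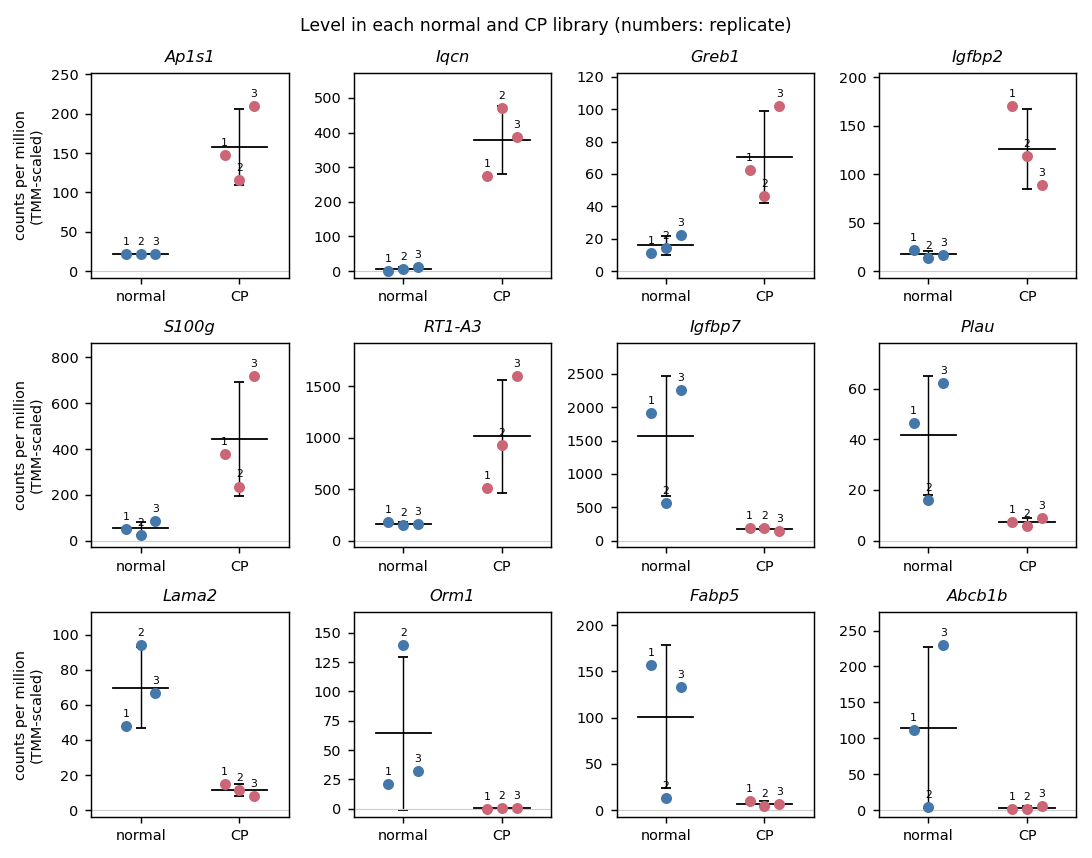
Each panel plots 1 gene, with CPM on the vertical axis (TMM-scaled, linear from 0), a point for each normal (blue) and CP (red) library marked with its replicate number, and a line and bar for the mean and SD of 3 libraries. The normal points of Ap1s1 lie at 21.6 to 22.3 CPM below CP points at 116 to 210 CPM, while for Abcb1b and Fabp5 normal replicate 2 lies close to the CP points.

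The gene with the smallest p among those lower in CP was Igfbp7, a secreted binding protein of the insulin-like growth factor family (mRatBN7.2 chr14:30737414-30797317, plus strand). It was at 1905, 557 and 2256 CPM in the normal libraries and at 193, 193 and 149 CPM in CP. All CP libraries were below all normal ones, and normal replicate 2 was the lowest of its group. The log2 fold change was -3.14 ± 0.54 (edgeR adjusted p 0.0847 over 12 libraries, 0.00564 over 6). Plau, the urokinase that activates plasminogen, was at 46.6, 16.1 and 62.3 CPM in normal and 7.29, 5.71 and 8.94 CPM in CP, a log2 fold change of -2.51 ± 0.48 (edgeR adjusted p 0.106 over 12 libraries, 0.0172 over 6). Lama2, the laminin α2 chain of basement membranes, was at 48.2, 94.0 and 67.0 CPM in normal and 14.8, 11.4 and 7.99 CPM in CP. Its log2 fold change was -2.61 ± 0.56 (edgeR adjusted p 0.136 over 12 libraries, 0.00359 over 6). Orm1, an acute-phase plasma protein, was at 20.8, 140 and 32.4 CPM in normal, and the 3 CP libraries held 7 counts of it in all, at 0, 0.671 and 0.571 CPM. Il17rb, a receptor chain for interleukin 25, was at 1.48, 7.71 and 6.33 CPM in normal with no count in any CP library, which makes it at least 26.6-fold lower against a floor of 3 counts over the CP group. Tspan18, Hspb6, Atp13a3, Acsbg1 and Epb41l3 also had every CP library below every normal one, with log2 fold changes of -1.79, -2.96, -2.15, -2.42 and -3.18.

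Several genes with lower means in CP were also low in normal replicate 2. Abcb1b, a drug-efflux P-glycoprotein, was at 112, 4.10 and 229 CPM in normal and 2.26, 2.18 and 6.09 CPM in CP, so that normal replicate 2 lay among the CP libraries. Fabp5, a carrier of fatty acids and retinoic acid, was at 157, 13.01 and 133 CPM in normal and 10.1, 4.36 and 6.28 CPM in CP. Isyna1, which makes inositol phosphate from glucose phosphate, was at 123.1, 8.91 and 141 CPM in normal and 3.77, 4.87 and 5.71 CPM in CP. Aqp5, an epithelial water channel, was at 161, 10.3 and 150 CPM in normal and 14.8, 13.1 and 2.66 CPM in CP. Igfbp1, a marker of decidual stroma in the human, was at 200, 3.80 and 149 CPM in normal and 20.4, 2.35 and 2.28 CPM in CP. Lrat, which esterifies retinol, and Cyp26a1, which degrades retinoic acid, followed the same order, with Lrat at 33.7, 2.20 and 84.2 CPM and Cyp26a1 at 37.1, 0 and 28.4 CPM in normal. Cyp26a1 had no count in CP, at least 110-fold lower than the normal group against 3 counts over the CP group. In each of these genes normal replicate 2 was the lowest normal library, and replicates 1 and 3 were above every CP library.

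Genes induced by type I and type II interferon had higher mean levels in CP than in normal tissue, with 0 of 34 called over 12 libraries. Interferon binding leads transcription factors to a sequence element upstream of their targets, and the products block viral replication, edit and degrade RNA, or present antigen. The core of the element, the letters GAAA, then any 2 bases, then GAAA again, was searched for on both strands, overlapping copies included, in the 250 bases before the start of each gene in RefSeq's GRCr8 promoter table. It was found in 16 of the 24 list members with a promoter there (66.7%), in 5 of 12 genes of MHC class I and peptide loading (41.7%) and in 1140 of all 33469 promoters (3.41%). Stretches around it are printed for 6 members, 5′ to 3′ on the strand of the gene, with the element in capitals, to show where in each promoter the letters stand. A capital run that starts with TTTC is the element read on the opposite strand.
Bst2: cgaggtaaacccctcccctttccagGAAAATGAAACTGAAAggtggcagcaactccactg
Ifi44: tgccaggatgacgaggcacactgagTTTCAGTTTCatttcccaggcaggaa
Ifit3: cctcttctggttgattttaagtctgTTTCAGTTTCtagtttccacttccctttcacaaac
Cxcl10: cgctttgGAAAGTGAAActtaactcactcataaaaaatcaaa
Irf7: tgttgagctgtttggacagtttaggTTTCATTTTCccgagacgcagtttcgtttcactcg
Gbp2: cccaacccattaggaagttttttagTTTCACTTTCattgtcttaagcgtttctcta
The Bst2 stretch (GRCr8 chr16:18255064-18255123, minus strand) holds 2 overlapping copies. The Ifi44 stretch lies at chr2:243303841-243303891 on the minus strand and the Ifit3 stretch at chr1:241527257-241527316 on the plus strand. Those of Cxcl10, Irf7 and Gbp2 lie at chr14:15988816-15988857 (plus), chr1:205800058-205800117 (minus) and chr2:234005671-234005726 (plus). A match describes the letters and does not show that a protein binds there.

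All 34 interferon-response genes tested had a higher mean level in CP, against 48.4% of all genes, and their median log2 fold change was 1.14. In 11 of the 34 every CP library was above every normal one, against 13.1% of all genes, and in 0 every CP library was below, against 14.8%. Over 12 libraries 10 had an unadjusted p under 0.05 and were higher, against 6.77% of all genes. Over 6 libraries 3 (Bst2, Ifi44 and Ifi27l2b) were called higher by edgeR, against 3.24%. Bst2, which tethers budding virus to the cell surface, was at 14.1, 16.6 and 18.8 CPM in normal and 48.5, 53.05 and 80.5 CPM in CP. Its log2 fold change was 1.88 ± 0.45 (edgeR adjusted p 0.192 over 12 libraries, 0.00693 over 6). Ifi44 was at 16.9, 23.1 and 28.5 CPM in normal and 44.7, 44.5 and 85.6 CPM in CP. Mx2, an antiviral GTPase, was at 4.01, 10.6 and 11.1 CPM in normal and 19.4, 14.3 and 93.6 CPM in CP, so that most of its mean came from CP replicate 3. The list score, the mean log2 level of the members set to 0 over all 12 libraries, was -0.71, -0.94 and -0.37 in normal and -0.28, -0.35 and 1.16 in CP. CP replicates 1 and 2 thus stood just above the highest normal library, and without CP replicate 3 the list's median log2 fold change was 0.54. The macrophage and monocyte list, cells that respond strongly to interferon, had 14 of 20 members higher with a median of 0.39 (0.03 without CP replicate 3) and 0 called over 6 libraries, and its summed level was 430 to 572 CPM in normal and 547 to 1298 CPM in CP. Its part in the interferon result was not tested. In AS and EEP, against the same normal libraries, the interferon list's medians were 1.02 and 1.25.

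Genes that display peptides to T cells mostly had higher mean levels too, though their list scores overlapped between the groups. RT1-A3, a class I heavy chain of the rat (mRatBN7.2 chr20:4847518-4851344, plus strand), was at 179, 152 and 160 CPM in normal and 514, 931 and 1600 CPM in CP. Its log2 fold change was 2.63 ± 0.51 (edgeR adjusted p 0.106 over 12 libraries, 0.00516 over 6), and RT1-A1, another class I chain, had 1.88 ± 0.46 (edgeR adjusted p 0.192 and 0.0149). Class I genes are near-identical in sequence, so reads may have been divided among them and the level of any one is uncertain. Of 14 genes of class I and peptide loading, a list without RT1-A3, 12 were higher, against 48.4% of all genes. Their median was 0.59 (0.99 without normal replicate 1), and 3 were higher with no overlap, against 13.1% of all genes. Of 10 class II genes 8 were higher, 1 with no overlap, and 0 were called over 6 libraries, against 3.24% called higher. Their median was 0.40, or 0.17 with mitochondrial genes removed and 0.74 without normal replicate 1. In both lists the score of CP replicate 2 was below that of normal replicate 1. Of 20 cytokines and chemokines, 12 were higher and 8 lower. Nfkbia, the inhibitor that NF-κB itself induces, was at 104 to 171 CPM in normal and 317 to 549 CPM in CP (log2 fold change 1.58 ± 0.40, edgeR adjusted p 0.192 over 12 libraries, 0.0140 over 6). Il33, an alarmin of stromal cells, was at 43.2 to 58.2 CPM in normal and 15.8 to 24.5 CPM in CP (-1.19 ± 0.37, edgeR adjusted p 0.224 and 0.0419).

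**Figure D2:**
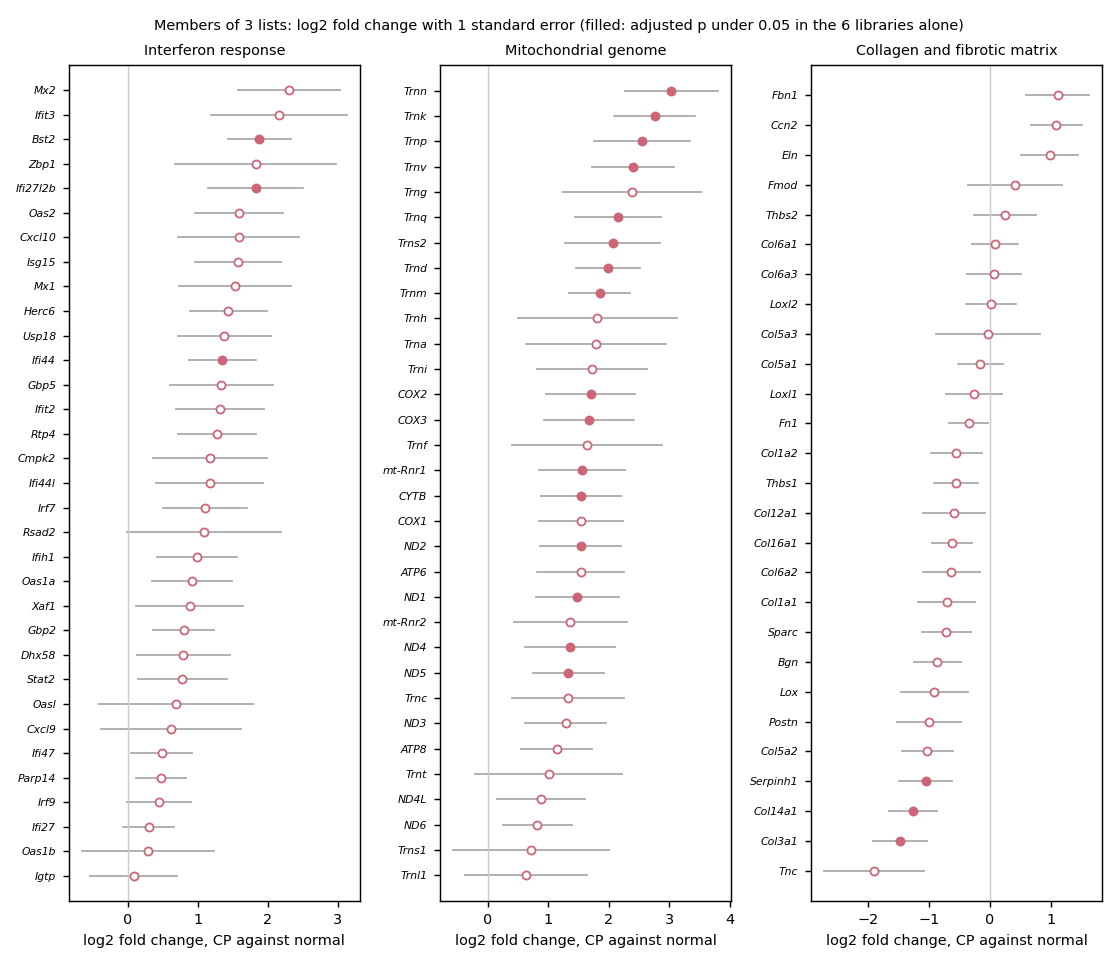
Points show the log2 fold change of CP against normal (horizontal axis) for each member of 3 gene lists, with bars of 1 standard error from the 12-library fit. Filled points passed an adjusted p of 0.05 over the 6 libraries alone, and 1 interferon member is not drawn. All interferon and mitochondrial points drawn lie to the right of 0, while 19 of the 27 collagen and fibrotic matrix points lie to the left.

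Transcripts of the mitochondrial genome and nuclear transcripts of the same respiratory complexes lay on opposite sides. The mitochondrial genome encodes core subunits of the respiratory chain with its own ribosomal and transfer RNAs, and the remaining subunits are encoded in the nucleus. All 32 mitochondrial genes tested were higher in CP, with a median log2 fold change of 1.55. In 27 of them the groups did not overlap, against 13.1% of all genes, and 16 were called higher over 6 libraries, against 3.24%. CYTB, a subunit of complex III, was at 26532, 16275 and 13441 CPM in normal and 74825, 39318 and 49686 CPM in CP. ND5, of complex I, was at 1218, 1312 and 917 CPM in normal and 3905, 2185 and 2582 CPM in CP (log2 fold change 1.33 ± 0.59, edgeR adjusted p 0.363 over 12 libraries, 0.0261 over 6). Transfer RNA genes had the largest folds: Trnk was at 8.12, 5.91 and 10.1 CPM in normal and 44.7, 48.01 and 70.8 CPM in CP, and Trnn at 36.7, 17.3 and 37.99 CPM and 209, 179 and 367 CPM. These genes carry the mitochondrial share given above, which was highest in CP replicate 1. With the mitochondrial share as a covariate in the 12-library fit the list's median was 0.37. The share is computed from the counts of these same genes, so this fit cannot test the list. In AS and EEP tissue, against the same normal libraries, the list's medians were 1.04 and 0.80, with 31 of 32 members higher in each. The mean mitochondrial share was 71.1% in AS and 49.6% in EEP, against 71.3% in CP and 50.2% in normal. The EEP libraries ran from 18.9% to 76.3%.

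Of 79 nuclear genes of the respiratory chain, 75 were lower in CP and 4 higher, against 51.6% of all genes lower, with a median of -0.68. In 51 every CP library was below every normal one, against 14.8% of all genes, and 8 were called lower over 6 libraries, against 1.38%. Atp5mc3, a ring subunit of ATP synthase, was at 643, 903 and 559 CPM in normal and 248, 281 and 275 CPM in CP (log2 fold change -1.39 ± 0.37, edgeR adjusted p 0.193 over 12 libraries, 0.0161 over 6). Cycs, cytochrome c, was at 7.17, 14.6 and 12.8 CPM in normal and 2.51, 1.51 and 3.04 CPM in CP. Of cytosolic ribosomal protein genes, 77 of 80 were lower, with a median of -0.66. In 54 the CP libraries were all below the normal ones, against 14.8% of all genes, and 4 were called lower over 6 libraries, against 1.38%. Rpl13 was at 135, 140 and 100 CPM in normal and 35.4, 61.8 and 32.7 CPM in CP (-1.53 ± 0.40, edgeR adjusted p 0.193 over 12 libraries, 0.0203 over 6). Ribosomal protein genes have many processed copies, so the level of a single member is uncertain. Both lists kept a median below 0 under all alternatives except DESeq2, for which list medians were not computed. The medians ran from -0.76 to -0.36 for the respiratory chain and from -0.74 to -0.51 for ribosomal proteins. In AS tissue against the same normal libraries the medians were 0.27 and 0.29, with 67 of 79 and 70 of 80 members higher. AS replicate 1 had a list score of 1.07 in both lists, above every normal library. AS replicates 2 and 3 lay within the normal range in both (0.25 and 0.24 for the respiratory chain, 0.23 and 0.24 for ribosomal proteins). In EEP tissue the medians were -0.69 and -0.68. CP was above AS in 3 of 79 and 1 of 80 members.

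**Figure D3:**
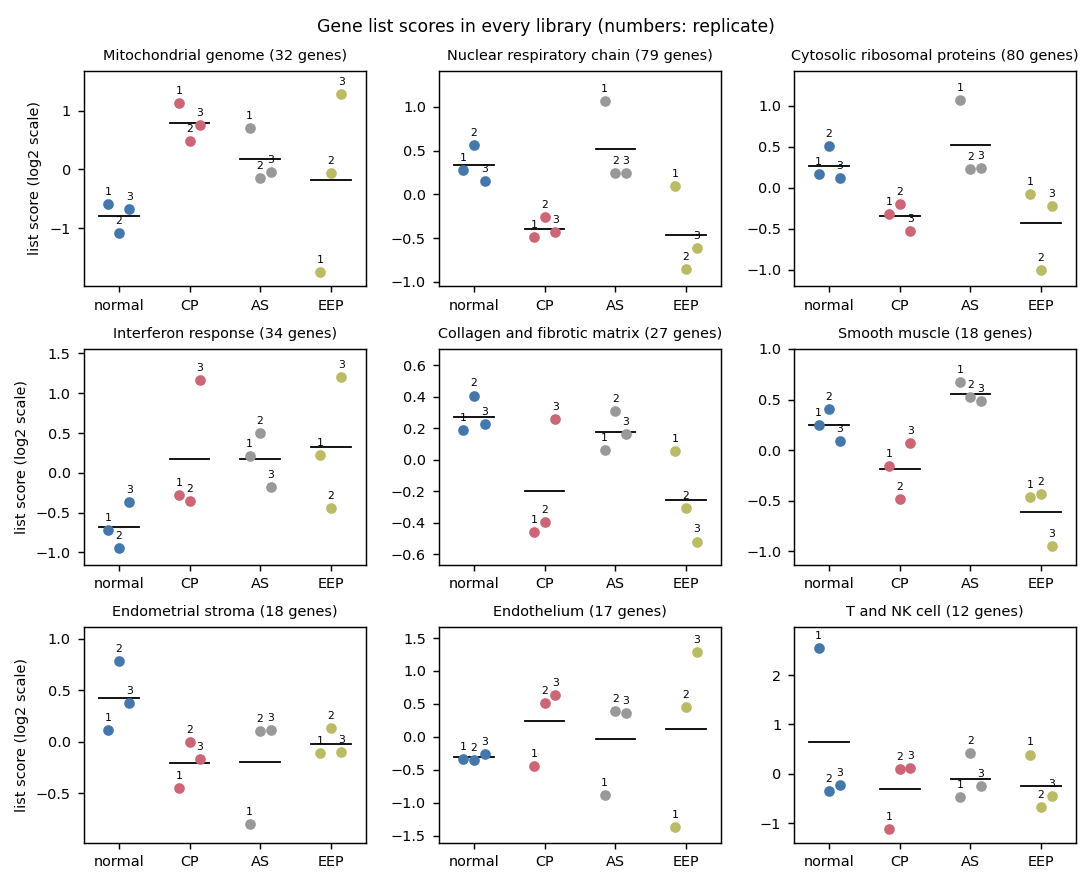
Each panel plots the score of 1 gene list (mean log2 level of its members, set to 0 over the 12 libraries) for every library of the 4 groups, numbered by replicate, with a line at the mean of each group. The CP points lie above the normal points for the mitochondrial genome and below them for the nuclear respiratory chain and cytosolic ribosomal proteins, where AS replicate 1 is the highest library.

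Genes of fibrous matrix, which accumulate in a scar, were for the most part lower in CP than in normal tissue. Of 27 genes of collagen and fibrotic matrix 19 were lower and 8 higher, with a median of -0.56 that was -0.10 with the mitochondrial share as a covariate. With no overlap between the groups 12 were lower, against 14.8% of all genes, and 1 was higher, against 13.1%. Over 6 libraries 3 (Col3a1, Col14a1 and Serpinh1) were called lower, against 1.38%. Col3a1, the chain of reticular collagen III, was at 1801, 2334 and 2597 CPM in normal and 844, 740 and 845 CPM in CP (log2 fold change -1.47 ± 0.44, edgeR adjusted p 0.221 over 12 libraries, 0.0117 over 6). The chains of collagen I differed less: Col1a1 was at 3309, 4577 and 4165 CPM in normal and 1886, 1961 and 3504 CPM in CP, and Col1a2 at 1796, 2375 and 2047 CPM and 1095, 1030 and 2108 CPM. For both genes CP replicate 3 lay within the normal range and the other CP libraries below it, and neither passed in either fit (edgeR adjusted p 0.540 and 0.602 over 12 libraries). Ccn2, a growth factor that drives matrix production, was on the other side, at 37.4, 19.9 and 17.4 CPM in normal and 62.8, 53.05 and 42.6 CPM in CP (1.08 ± 0.42, edgeR adjusted p 0.299 over 12 libraries, 0.0822 over 6).

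Genes of the transforming growth factor β, BMP and activin pathways were evenly divided, 15 of 31 higher and 16 lower, with a median of -0.05. Ltbp2, a matrix protein related to those that hold latent TGF-β, was at 1.05, 1.001 and 1.92 CPM in normal and 15.1, 5.37 and 15.4 CPM in CP (log2 fold change 3.15 ± 0.66, edgeR adjusted p 0.126 over 12 libraries, 0.0193 over 6). Inhba, the activin βA chain, was at 5.11 to 6.75 CPM in normal and 13.3 to 52.1 CPM in CP. Tgfb3, the ligand TGF-β3, was at 2.85, 3.10 and 3.07 CPM in normal, and 2 counts were found in the CP group, a ratio of normal to CP of 22.9 (95% counting interval 6.15 to 192). Of 21 Wnt pathway genes 16 were lower, with a median of -0.89 (-0.50 with the mitochondrial share as a covariate). Sfrp1 and Sfrp2, secreted inhibitors of Wnt ligands, were among them. Sfrp1 was at 30.8, 60.7 and 44.4 CPM in normal and 16.8, 8.90 and 5.71 CPM in CP, and Sfrp2 at 40.5, 55.6 and 36.4 CPM and 11.1, 17.5 and 7.80 CPM. Axin2, a feedback target of Wnt signalling, was at 23.3, 37.5 and 34.3 CPM in normal and 55.6, 61.6 and 169 CPM in CP (1.59 ± 0.52, edgeR adjusted p 0.244 over 12 libraries, 0.0493 over 6).

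Marker lists of the cells of the uterine wall lay on different sides of 0. In bulk tissue, fewer cells of a type and less RNA per cell cannot be told apart. Over all genes 13.1% were higher and 14.8% lower with no overlap, and 3.24% were called higher and 1.38% lower over 6 libraries, which the counts of each list stand beside. Stromal markers were lower in 14 of 18 genes (median -0.68, 7 with no overlap), and Dcn, a collagen-binding proteoglycan, was at 847, 1029 and 1527 CPM in normal and 494, 365 and 457 CPM in CP (log2 fold change -1.37 ± 0.53, edgeR adjusted p 0.300 over 12 libraries, 0.0239 over 6). Smooth muscle markers were lower in 12 of 18 genes (median -0.56, or -0.30 with the mitochondrial share as a covariate, 10 with no overlap). Mylk, the kinase that starts contraction, was at 889, 1281 and 732 CPM in normal and 376, 358 and 473 CPM in CP (-1.26 ± 0.35, edgeR adjusted p 0.193 over 12 libraries, 0.0318 over 6). Des, the muscle intermediate filament desmin, was on the other side, at 155, 128 and 141 CPM in normal and 443, 201 and 391 CPM in CP (1.28 ± 0.41, edgeR adjusted p 0.236 and 0.0341). Endothelial markers were higher in 15 of 17 genes, with a median of 0.62, 7 with no overlap and 3 (Nos3, Cdh5 and Erg) called over 6 libraries. Nos3, endothelial nitric oxide synthase, was at 9.91, 4.71 and 11.03 CPM in normal and 40.5, 55.7 and 33.7 CPM in CP (2.34 ± 0.94, edgeR adjusted p 0.312 over 12 libraries, 0.00818 over 6). When the mitochondrial share entered the 12-library fit as a covariate, the endothelial median was -0.04 and the log2 fold change of Nos3 was 0.53. Every CP library had a higher share than every normal one, and the part of the share in the endothelial result was not tested. Haemoglobin and other erythrocyte markers were higher in 7 of 7 genes, with a summed level of 208 to 287 CPM in normal and 503 to 708 CPM in CP, while Slc4a1 and Rhag had no count in the 6 libraries.

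Lymphocyte markers were lower in CP in 11 of 12 genes, with a median of -1.92, but the sign of that median rested on 1 normal library. With no overlap between the groups 2 members were lower, against 14.8% of all genes, and 1 was higher, against 13.1%. The list's summed level was 34.6 to 267 CPM in normal and 36.2 to 60.5 CPM in CP. Ccl5, a chemokine of cytotoxic lymphocytes, was at 72.2, 4.40 and 3.84 CPM in normal and 2.51, 3.36 and 11.2 CPM in CP, and without normal replicate 1 its log2 fold change turned to 0.46 and the list's median to 0.54. Il2rb, a receptor chain for interleukins 2 and 15, was at 37.9, 7.01 and 2.21 CPM in normal and 0, 0.671 and 1.14 CPM in CP (-4.60 ± 1.24, edgeR adjusted p 0.193 over 12 libraries, 0.0419 over 6). Its log2 fold change stayed below 0 under all alternatives (-5.32 to -2.86). Keratinocyte-type genes, which mark stratified epithelium and are low in the uterine horn, were mostly too low to compare. Of 19 listed genes 8 were tested over 12 libraries, and 4 of these (Krt5, Krt13, Krt14 and Spink5) had too few counts in CP and normal to be tested over 6. The list's median was 3.45 with all 8 and 0.97 for the genes tested over 6 libraries. Krt15 was at 0, 0.1001 and 2.88 CPM in normal and 4.78, 17.5 and 22.3 CPM in CP, and Krt5 at 0.105, 0.1001 and 0.192 CPM and 0, 8.90 and 5.33 CPM, so CP replicate 1 was the lowest CP library in both. Their summed level was 13.7 to 19.5 CPM in normal and 29.7 to 60.5 CPM in CP, and Krt6a, Krt17, Dsc3, Loricrin and Sprr1b had no count in the 6 libraries. Genes of simple uterine epithelium were evenly divided, 8 of 17 higher, with a median of -0.02 that ran from -0.80 without CP replicate 1 and normal replicate 2 to 0.93 with the mitochondrial share as a covariate.

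**Figure D4:**
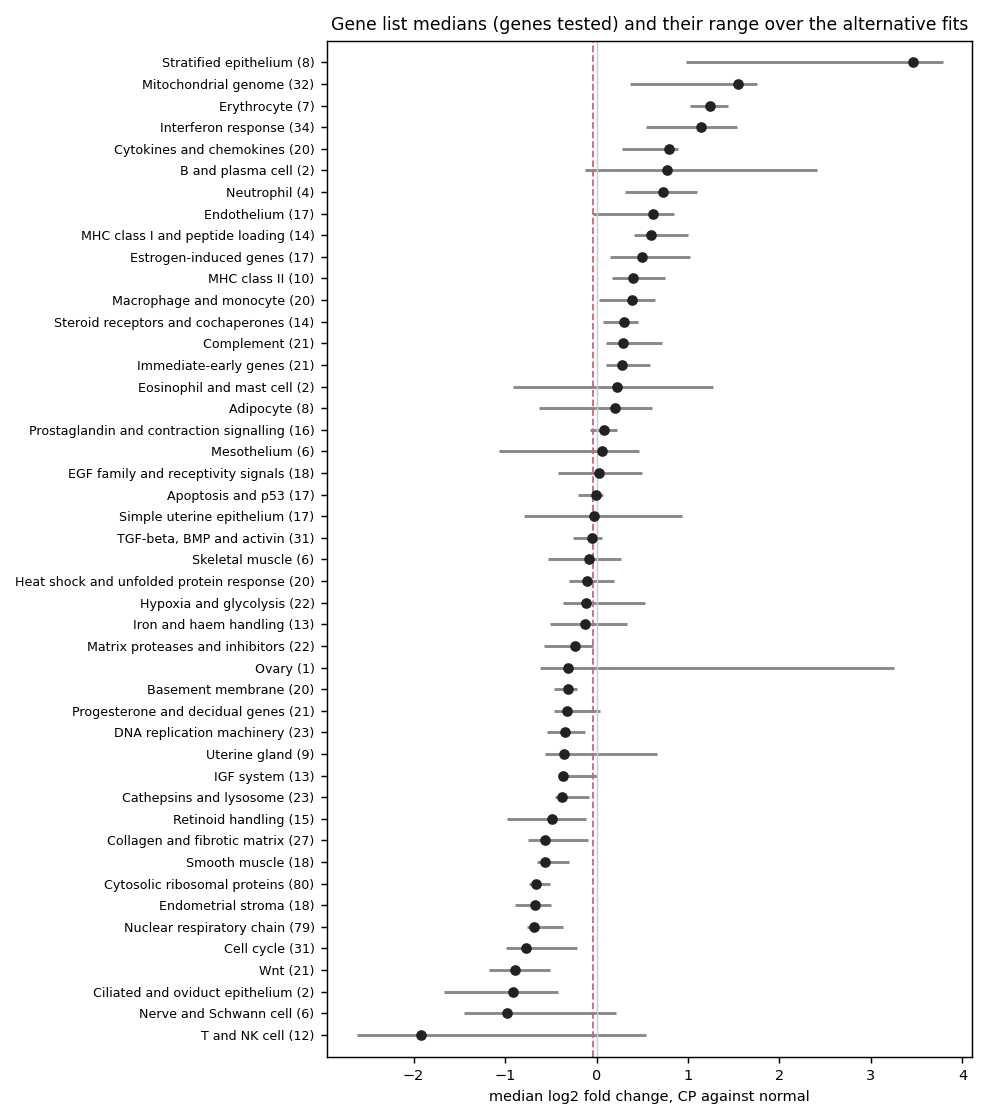
Points show the median log2 fold change of CP against normal (horizontal axis) for each of 46 gene lists, with the number of genes tested in brackets. Grey bars span the lowest and highest median over the alternative fits other than DESeq2. The dashed line is the median of all 13909 genes (-0.04), and the bar of the T and NK cell list crosses it, while the bars of the mitochondrial genome, interferon, ribosomal protein and nuclear respiratory chain lists do not.

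Estrogen-induced genes, which report hormone action on the uterus, were higher in 12 of 17 cases, with a median of 0.50 that was 0.14 without CP replicate 3 and 1.03 without CP replicate 1 and normal replicate 2. With no overlap between the groups 6 were higher, against 13.1% of all genes. Over 6 libraries 6 were called higher, against 3.24%, and 1 lower, against 1.38%. Greb1, a cofactor and direct target of the estrogen receptor, was at 10.97, 14.4 and 22.3 CPM in normal and 62.6, 46.5 and 102 CPM in CP. Its log2 fold change was 2.14 ± 0.43 (edgeR adjusted p 0.120 over 12 libraries, 0.0112 over 6). Igfbp2, a binding protein for insulin-like growth factors, was at 21.5, 13.7 and 16.4 CPM in normal and 170, 119 and 88.5 CPM in CP (2.87 ± 0.65, edgeR adjusted p 0.160 over 12 libraries, 0.00303 over 6). S100g, the calcium carrier calbindin-D9k, was at 50.4, 25.8 and 84.2 CPM in normal and 377, 236 and 720 CPM in CP, and at 2243, 54.5 and 55.3 CPM in AS, where 1 library held nearly all of it. Vegfa, a growth factor for vessels, was at 15.2, 21.3 and 32.1 CPM in normal and 65.4, 51.5 and 58.04 CPM in CP (1.35 ± 0.50, edgeR adjusted p 0.284 over 12 libraries, 0.0312 over 6). Esr1, the estrogen receptor itself, was on the other side, at 150, 123.3 and 153 CPM in normal and 63.1, 99.5 and 62.2 CPM in CP (-0.92 ± 0.36, edgeR adjusted p 0.300 over 12 libraries, 0.0771 over 6). Aqp5, described above, was the estrogen-induced gene called lower. Genes of progesterone response and decidualisation were nearer to even, 9 of 21 higher and 12 lower with a median of -0.32 that turned to 0.03 without CP replicate 3, and the leading members Cyp26a1 and Igfbp1 rested on normal replicates 1 and 3.

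The genes that differed were set beside the other groups by their own values, since all these comparisons share the 3 normal libraries. Igfbp7 was at 235 to 386 CPM in AS and 80.6 to 267 CPM in EEP, below every normal library in both, with log2 fold changes of -2.30 and -3.25 against -3.14 in CP. Ap1s1 was at 62.0 to 78.0 CPM in AS and 36.2 to 119 CPM in EEP, above every normal library in both. Iqcn was at 30.98 to 87.0 CPM in AS, below all CP libraries, and at 9.40, 346 and 415 CPM in EEP. Plekhh1 had a log2 fold change of 0.06 in AS against 2.79 in CP, and Epb41l3 had 0.52 against -3.18. For Mylk the AS libraries were at 909 to 946 CPM, within the normal range and above every CP library, with a log2 fold change of CP against AS of -1.21. Over all genes, AS against normal and EEP against normal each had 1 gene called in the 12-library fit (0.00719%), Fam111a and Spink5 in that order, and CP against AS had Fam111a alone (0.00719%).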

How the data were processed

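Total RNA from rat uterine tissue (12 libraries, 4 groups of 3, 1000 ng of RNA each) was made into QuantSeq 3′ libraries and read in single-end mode at 75 bp, per the labels' protocols. The submitters' processing notes name Bowtie2, bedtools and the build mm10, a mouse genome, while the deposited information sheet describes a rat annotation on mRatBN7.2, and gene coordinates are those of the latter. The strand setting of the counting is not given in the sources used here. The deposited table holds raw counts per gene for each library, which were used for all tests. It also holds, from the authors, log2 values of TMM-scaled CPM, fold ratios between groups, and p-values and q-values, used here only as a check and where the authors' deposited table is named. The authors' log2 values were recomputed from the counts to within 0.0335.

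edgeR 4.0.16 (R 4.3.3) fitted 1 quasi-likelihood model to the 4 groups after TMM scaling and filterByExpr, with Benjamini-Hochberg adjustment over all genes tested and a threshold of 0.05. The fit on the CP and normal libraries alone, DESeq2 1.42.0, other filters and scalings, the mitochondrial share as a covariate, and each library left out in turn are alternatives. The model was tested on simulated counts. Named genes were the 12 with the smallest p in each direction, up to 10 per direction with the largest fold at 50 CPM or more in either group and no overlap, and up to 3 per gene list with the smallest p. Gene symbols that are only locus codes were left out. Some list members, and Fam111a and Rn45s, were named after their values were seen. The comparison, its 46 gene lists and the tests were chosen with earlier results of these data known. Intervals and floors cover counting error only, since reads carry no molecular identifiers. A few list members were analysed within their lists but are not reported here by name.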

Additional observations from a re-analysis of the deposited data

Results flagged for a closer look

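Fam111a, a protease that protects replicating DNA, differed between CP and AS, while its CP and normal libraries overlapped. It was at 77.5, 58.2 and 105 CPM in normal, 64.1, 85.1 and 36.9 CPM in CP, 77.0, 96.2 and 29.2 CPM in EEP, and 1.17, 3.26 and 2.37 CPM in AS. The test of CP against AS in the 12-library fit gave a log2 difference of 4.77 (edgeR adjusted p 0.00255), with 3 of 3 CP libraries above every AS library. CP against normal was -0.37 ± 0.46 on the log2 scale (edgeR adjusted p 0.766 over 12 libraries, 0.598 over 6), and the 2 groups overlapped. The cause was not tested.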

How the results depend on the processing

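The count of genes called over 12 libraries was 0 in the main fit, and also with RLE scaling, the stricter filter, mitochondrial genes removed and the mitochondrial share as a covariate. It was 6 at an adjusted p under 0.1, 265 with DESeq2, 445 with no low-count filter, 585 with the 2 groups alone, and 1 (Abcb1b) without CP replicate 1 and normal replicate 2 together. Leaving out 1 library gave 0 to 6, the 6 without normal replicate 2 (Abcb1b, Fabp5, Igfbp7, Cyp2f4, Plau and F3, all lower in CP). At an unadjusted p under 0.05 the count of 1760 became 2692 with the 2 groups alone, 797 with the mitochondrial share as a covariate, 878 without CP replicate 1 and normal replicate 2, and 1123 to 1868 with 1 library left out, the lowest without normal replicate 2. In the 2 groups alone the count of 585 became 1389 with no filter, 1196 with DESeq2 and 57 to 654 with 1 library left out. The causes were not tested. Changes of sign were looked for only in 139 genes, chosen by the naming rules or for the text, and not over all genes. Among these, 4 log2 fold changes changed sign with the mitochondrial share as a covariate: Cdh5 (-0.12), Erg (-0.039), Pecam1 (-0.43) and mt-Rnr2 (-0.55). The counts of mt-Rnr2 are themselves part of that share. The log2 fold change of Ccl5 ranged from -3.18 to 0.46 with 1 library left out, the highest without normal replicate 1. The mitochondrial difference ranged from 15.4 to 24.3 points with 1 library left out.

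Replicate numbers are shared by the groups, but same-numbered CP and normal libraries did not deviate together (r = 0.01, 0.08 and -0.06 across genes). With the replicate block 11 genes were called over 12 libraries, and 570 in the 2 groups alone. The fits excluding CP replicate 1 and normal replicate 2 together, the unadjusted counts and the alternatives of the 2-group fit were added after seeing the data. Depth limits genes under about 0.754 CPM, where a library may hold 3 counts or fewer.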

Other observations

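Several classes of RNA other than protein-coding messages had larger shares of genes with every CP library above every normal one than all genes together. Of 703 long noncoding RNAs tested, every CP library was above every normal one in 157 (22.3%), against 13.1% of all genes, and below in 45 (6.40%), against 14.8%. Their median log2 fold change was 0.72, where that of 12973 protein-coding genes was -0.07. Of 88 small nucleolar RNAs, which guide chemical modification of ribosomal RNA, 26 were higher with no overlap and 2 lower, with a median of 1.35. Of 12 small nuclear RNAs, parts of the splicing machinery, 6 were higher with no overlap and 1 lower, with a median of 1.87. Over 6 libraries 32 long noncoding RNAs (4.55%), 1 small nucleolar RNA (1.14%) and 1 small nuclear RNA (8.33%) were called higher, against 3.24% of all genes. In the same order 3, 0 and 0 were called lower. Rn45s, the precursor of the cytosolic ribosomal RNAs, was at 7.07, 4.71 and 4.32 CPM in normal and 60.3, 33.1 and 29.5 CPM in CP (log2 fold change 2.93 ± 0.82, edgeR adjusted p 0.207 over 12 libraries, 0.00355 over 6), and at 9.71, 15.7 and 40.1 CPM in AS. The mitochondrial share was also higher in the CP libraries, and its part in these values was not tested. The library method is one for messenger RNA, so reads on these genes may not stand for the mature noncoding RNAs. The same limit holds for the mitochondrial transfer RNA genes given above.

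Cell cycle genes were lower in 21 of 31 cases, against 51.6% of all genes, with a median of -0.78, and 9 were lower with no overlap, against 14.8%. Over 6 libraries 0 were called in either direction, against 3.24% of all genes called higher and 1.38% lower. The list score was 0.40, 0.66 and 0.10 in normal and -1.35, -0.07 and 0.03 in CP, so CP replicate 1 was the lowest, and without CP replicate 1 and normal replicate 2 the median was -0.22. Of 21 immediate-early genes 14 were higher, 7 with no overlap (against 13.1%), with a median of 0.28 that was 0.10 without CP replicate 1 and normal replicate 2 and 0.58 without normal replicate 1. Fos, a transcription factor of the AP-1 dimer, was at 5.48, 12.8 and 10.3 CPM in normal and 43.5, 43.98 and 19.98 CPM in CP (log2 fold change 1.91 ± 0.54, edgeR adjusted p 0.208 over 12 libraries, 0.0248 over 6).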
